A study of Mus musculus with 6 samples.

Results

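A set of 10 genes of the primitive endoderm was followed through 6 mRNA libraries of mouse embryonic stem cells. They were the transcription factor genes Gata4, Gata6, Sox7, Sox17 and Foxa2, the receptor gene Pdgfra, the endocytic adaptor gene Dab2, and Lrp2, Cubn and Amn, which encode parts of endocytic receptors. They were chosen by name, with earlier results of these data known, and make up 10 of the 18857 genes joined over the libraries.

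PolyA RNA was sequenced from KH2 cells, an embryonic stem cell line of mixed C57BL/6 x 129 background, with 1 library per group. Wild-type KH2 cells were left untreated or received PD0325901 (PD in the plots) for 48 hours. This compound blocks Mek, the kinase that activates Erk. The other 4 libraries came from KH2-derived cells labelled iErk1; Erk KO, which were kept with Dox, were cultured for 48 hours or for 96 hours without Dox, or were given PD0325901 over the last 48 of such 96 hours. By the design text, the study asked what Mek inhibition does in wild-type and in Erk KO cells, and what the loss of Erk does. The labels used here do not give the inhibitor's dose, the Dox dose, the use of feeder cells or the number of clones behind the Erk KO line, and they do not say which parts of the genes were altered. With a single library per group, no difference between 2 libraries has a replicate check.

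The library totals ran from 9.05 to 9.95 times 1e6 uniquely mapped reads. Mapk3, which encodes Erk1, was at 56.4 and 52.8 RPKM (reads per kilobase of gene and 1e6 reads) in untreated and inhibitor-treated KH2 cells, at 14.8 RPKM with Dox, and at 6.86, 6.75 and 9.18 RPKM in the 3 libraries without Dox. Reads over a whole gene do not separate a transgene from the native gene. The stem cell genes Pou5f1 (539 to 769 RPKM) and Sox2 (166 to 271 RPKM) were high in every library. The evenness of reads along genes differed between the lines. For genes of 3000 to 4000 bases with 200 to 300 reads, the median share of the gene covered was 89.3% and 89.8% in the KH2 libraries and 79.7% to 81.3% in the 4 Erk KO libraries. Fibroblast markers moved with the inhibitor. The summed level of a list of 21 of them was 509 RPKM in untreated and 2755 RPKM in treated KH2 cells, 175, 177 and 228 RPKM in the Erk KO libraries with Dox and after 48 and 96 hours without it, and 950 RPKM with the inhibitor at 96 hours. None of the 21 was at 0 in any library.

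In the blastocyst, the inner cell mass gives rise to the epiblast and to the primitive endoderm, which later forms the visceral and parietal endoderm of the yolk sacs. Fgf4 from epiblast precursors signals through Fgf receptors, Mek and Erk to favour Gata6 and the primitive endoderm, while Nanog marks the epiblast. Gata6 acts upstream of Gata4, Sox17 and Sox7, and Pdgfra marks the lineage early. In visceral endoderm, megalin (encoded by Lrp2) and cubilin (Cubn), which needs amnionless (Amn) to reach the cell surface, take up maternal proteins, and Dab2 links such receptors to clathrin.

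All 10 genes had reads in every library, at modest levels. Cubn spanned the widest range, with its highest level 37.5 times its lowest, followed by Sox17 (19.5 times), Sox7 (16.8), Amn (13.3), Gata6 (9.01), Foxa2 (8.25), Dab2 (5.25), Lrp2 (3.37) and Pdgfra (3.07). Gata4 varied least, with a ratio of 1.88 between its highest and lowest level. In bulk RNA, fewer cells of a type and less RNA per cell cannot be told apart. Foxa2, a forkhead factor of endoderm, was at the edge of detection, with between 2 and 15 reads per library.

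**Figure D1:**
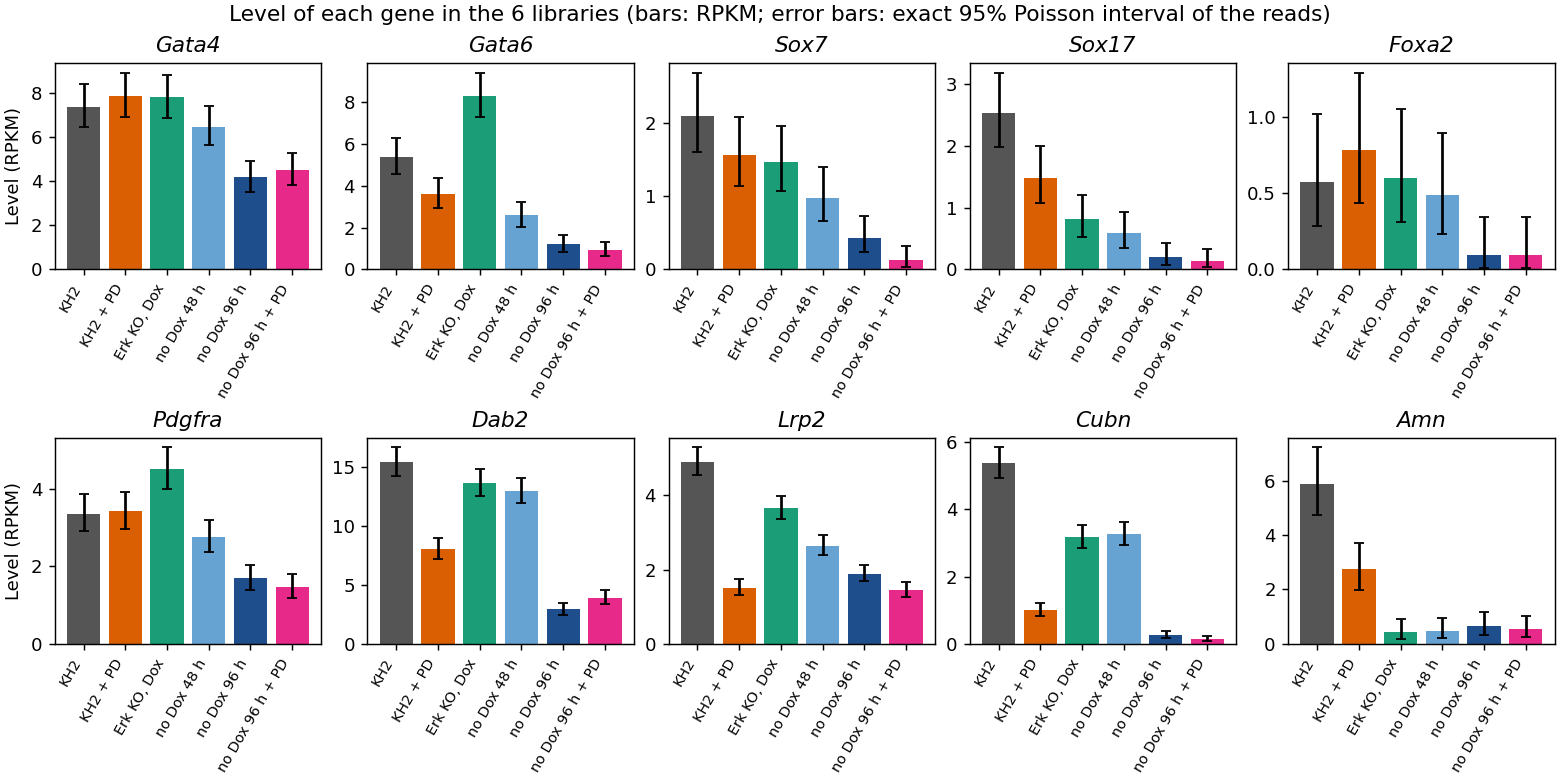
Level of each of the 10 genes in the 6 libraries, as RPKM on linear axes that start at 0. Bars are single libraries and error bars are exact 95% Poisson intervals of the reads, which cover counting error only. Cubn and Dab2 are low in both libraries taken 96 hours after Dox withdrawal, and Amn is low in all 4 Erk KO libraries.

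To compare libraries, a gene was said to pass the size rule where the log2 ratio of RPKM plus 0.5 was at least 1 in size, the higher RPKM was at least 1, both libraries together held at least 20 reads and the exact 95% interval of the ratio of reads excluded 1. Fold values are ratios of reads per library total, with exact 95% Clopper-Pearson intervals in brackets. The log2 values include the pseudocount, and so understate the change of low genes. The reads carry no molecular identifiers, so the intervals cover counting error only.

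In wild-type KH2 cells, the receptor genes Cubn and Lrp2 were lower with PD0325901, and no gene of the set was higher by the size rule. Cubn had 554 reads (5.38 RPKM) in untreated cells and 104 reads (1.01 RPKM) in treated cells, which was 5.30-fold lower (4.29 to 6.60). The share of the Cubn transcript covered by these same reads, which depends on their number, went from 87.0% to 35.8%. Lrp2 had 689 reads (4.90 RPKM) and 212 reads (1.51 RPKM), 3.24-fold lower (2.77 to 3.79). These 2 of 10 genes compare with 1.22% of 12787 genes called lower and 3.86% called higher in this comparison. The summed fibroblast markers went from 509 to 2755 RPKM in the same pair, and their part in these ratios was not tested. The median log2 ratio was -0.57 over the 10 genes, -0.61 over the 9 of them that met the limits and -0.02 over all genes tested.

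The other genes of the uptake machinery were lower by less than the limit. Dab2 had 15.4 RPKM without and 8.07 RPKM with the inhibitor, 1.91-fold lower (1.67 to 2.19), with a log2 ratio of -0.89. Amn was at 5.88 and 2.75 RPKM, 2.13-fold lower (1.46 to 3.15), with a log2 ratio of -0.97, just short of the limit. With a pseudocount of 0.1, Amn passed at -1.07. For all 4 of these genes the interval excluded 1.

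The transcription factors did not pass the size rule, and for Pdgfra and Gata4 the intervals included 1. Gata6 had 5.37 RPKM without and 3.60 RPKM with the inhibitor, 1.49-fold lower (1.16 to 1.93). Sox17, a Sox factor of endoderm, was at 2.53 and 1.48 RPKM, 1.71-fold lower (1.15 to 2.56). Sox7 was at 2.09 and 1.56 RPKM, and its interval of 0.90 to 2.01 for the fold decrease included 1. Gata4 was at 7.36 and 7.85 RPKM, a ratio of 1.07 (0.89 to 1.28), and Pdgfra at 3.37 and 3.43 RPKM, a ratio of 1.02 (0.83 to 1.24). Fibroblasts also express Pdgfra, and their part in its level was not tested. Foxa2, with 11 and 15 reads, did not reach the limits on level. For Gata4 and Pdgfra a change of 2-fold in either direction lay outside the interval.

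**Figure D2:**
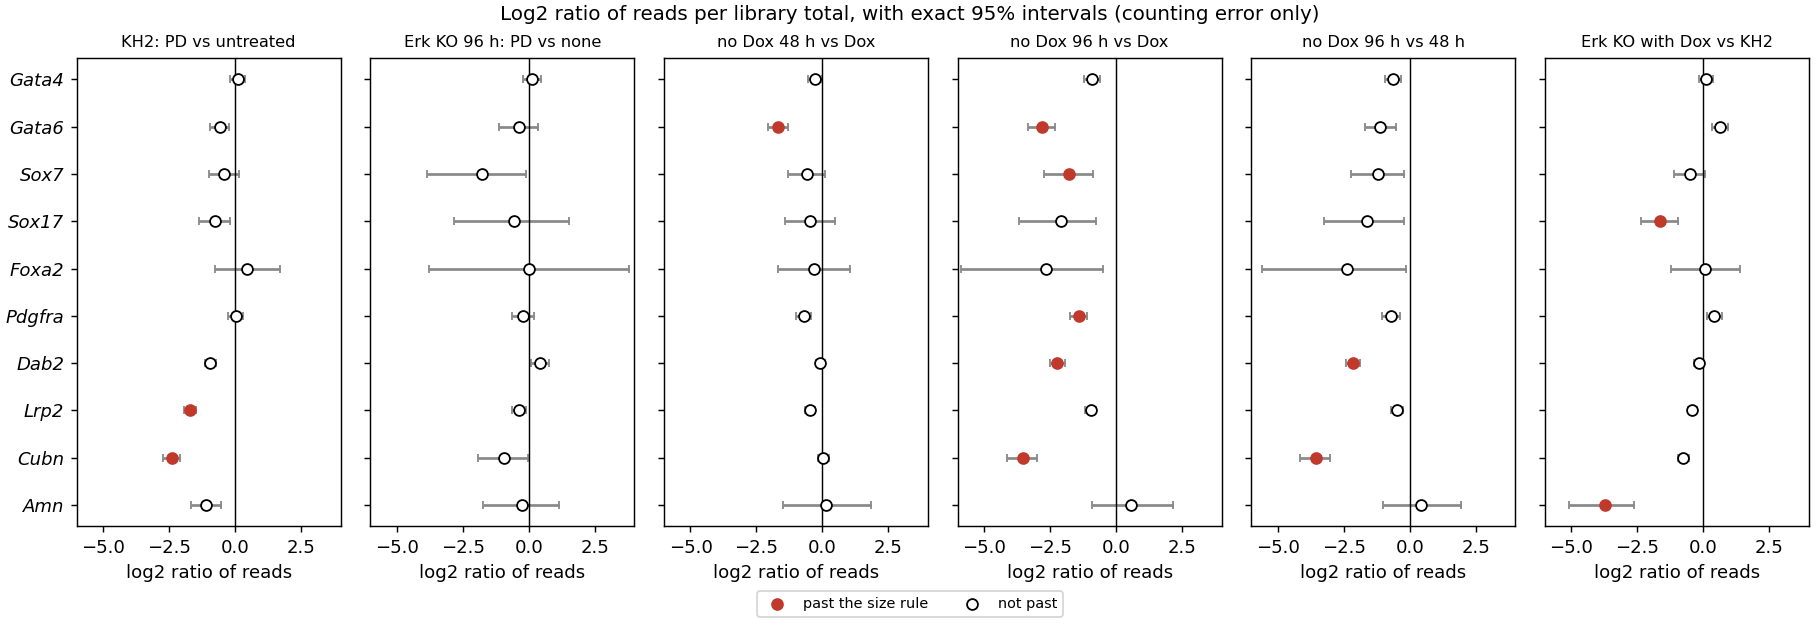
Log2 ratio of reads per library total for the 10 genes in 6 pairs of libraries, without a pseudocount, with exact 95% intervals for counting error. Filled points pass the size rule, which is set on RPKM plus 0.5. With PD0325901 in KH2 cells Lrp2 and Cubn pass, and 96 hours after Dox withdrawal Gata6, Sox7, Pdgfra, Dab2 and Cubn pass.

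The products of the differentiated descendants did not move as 1 group with the inhibitor in KH2 cells. Of 10 basement membrane genes, which primitive and parietal endoderm make in quantity, 4 passed the size rule as higher and 0 as lower. Sparc, which encodes a matrix protein, was 3.13-fold higher (3.03 to 3.24), and the collagen IV genes Col4a2 and Col4a1 were 2.58-fold and 2.28-fold higher. The fourth was Serpinh1, the collagen chaperone gene, at 2.20-fold. Of the 21 fibroblast markers, 13 were higher and 0 lower, with Col1a1 at 96.4 and 878 RPKM, and fibroblasts also make collagen IV and Sparc. The part of these cells in the basement membrane ratios was not tested. Of 14 visceral endoderm genes, 6 met the limits, of which 1 was lower and 0 higher. It was Spink1, a secreted protease inhibitor gene, with 48 reads untreated and 3 treated, 15.9-fold lower (5.13 to 79.9). Afp and Apoa4 had no reads in any library, and Ttr, another classic product of visceral endoderm, had at most 1 read per library. None of 23 other genes of receptor endocytosis passed in either direction, with a median log2 ratio of 0.09. Of 6 transcriptional targets of Erk, 3 passed as lower and 0 as higher, with Spry4, Dusp6 and Etv4 25.7-fold, 5.0-fold and 9.28-fold lower. The other targets did not pass, with Spry2 at a ratio of 0.50, Etv5 at 0.69 and Egr1, an immediate early gene, at 1.28 (1.23 to 1.33).

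The sequences just upstream of Cubn, Lrp2 and Dab2 are shown because Cubn passed the size rule both with the inhibitor and after Dox withdrawal, Lrp2 with the inhibitor and Dab2 after Dox withdrawal. Gata6, Sox7 and Pdgfra, which also passed after withdrawal, are not shown. They are the 250 bases before each annotated transcription start, from RefSeq on mouse build GRCm38.p6, read 5′ to 3′ on the strand of the gene. The library files used build mm9, so the windows were matched by gene symbol and no position was carried over. Windows were held for 6 of the 10 genes. The 4 short motifs searched, on both strands, were GATAA, as bound by Gata factors, ACAAT for Sox factors, TGTTT for forkhead factors and CCGGAAG for Ets factors, which are common nuclear targets of Erk. Capitals mark the motif letters found, and none of the matches overlapped another motif.
Cubn, chr2:13491877-13492126, minus strand: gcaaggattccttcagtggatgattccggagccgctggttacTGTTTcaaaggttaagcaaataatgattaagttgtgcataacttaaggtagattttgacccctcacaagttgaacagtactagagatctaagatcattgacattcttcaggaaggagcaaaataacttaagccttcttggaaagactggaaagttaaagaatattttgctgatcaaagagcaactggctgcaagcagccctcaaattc
Lrp2, chr2:69586030-69586279, minus strand: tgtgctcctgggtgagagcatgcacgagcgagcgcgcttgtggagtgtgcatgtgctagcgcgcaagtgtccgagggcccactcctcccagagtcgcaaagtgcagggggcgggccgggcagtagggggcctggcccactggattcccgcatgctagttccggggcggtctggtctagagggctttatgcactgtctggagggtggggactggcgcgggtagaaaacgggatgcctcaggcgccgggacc
Dab2, first start, chr15:6299539-6299788, plus strand: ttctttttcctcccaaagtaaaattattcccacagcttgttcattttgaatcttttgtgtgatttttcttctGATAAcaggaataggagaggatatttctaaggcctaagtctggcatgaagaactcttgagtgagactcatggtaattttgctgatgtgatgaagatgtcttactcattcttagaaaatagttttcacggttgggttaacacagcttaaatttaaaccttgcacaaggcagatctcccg
Dab2, second start, chr15:6386498-6386747, plus strand: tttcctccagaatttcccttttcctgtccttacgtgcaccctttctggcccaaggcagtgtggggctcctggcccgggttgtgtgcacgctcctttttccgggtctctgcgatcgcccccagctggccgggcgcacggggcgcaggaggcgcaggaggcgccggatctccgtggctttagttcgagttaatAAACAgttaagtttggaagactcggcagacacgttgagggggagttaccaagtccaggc

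No motif was found in the windows of all 3 genes. The Cubn window held 1 TGTTT, 208 to 204 bases before the start, and the window of the second Dab2 start held its reverse complement AAACA at 59 to 55 bases. The first Dab2 start had 1 GATAA at 178 to 174 bases, and the Lrp2 window held none of the motifs. The Pdgfra window, which is not shown, held none of them either, and no window was held for Gata6 and Sox7. Over all 32851 windows of this length, 22.6% held GATAA, 27.7% ACAAT, 46.4% TGTTT and 6.91% CCGGAAG, so each match found is of a common kind. Base composition differed widely, with a GC content of 39.6% for Cubn, 66.4% for Lrp2, and 36.8% and 60% for the first and second Dab2 start.

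In the Erk KO line at 96 hours without Dox, no gene of the set passed the size rule with the inhibitor. The background in this comparison was 0.587% of 11920 genes called lower and 1.34% called higher. The limits on reads and RPKM were met by 5 of the 10 genes. Cubn had 31 reads without and 16 reads with the inhibitor (0.27 and 0.14 RPKM), a ratio of 0.52 (0.27 to 0.99). Lrp2 had 291 and 221 reads (1.89 and 1.45 RPKM), a ratio of 0.77 (0.64 to 0.92). Dab2 went the other way, with 132 and 174 reads (2.93 and 3.92 RPKM) and a ratio of 1.33 (1.06 to 1.69). Sox7 had 14 reads without and 4 with the inhibitor, a ratio of 0.29 (0.07 to 0.92), and Sox17 had 6 and 4. Gata6 (38 and 29 reads), Gata4 (141 and 150), Pdgfra (111 and 95), Amn (11 and 9) and Foxa2 (2 and 2) had intervals that included 1. Of the 6 Erk targets, Spry4, Dusp6 and Etv4 passed as lower in the same pair, by 48.4-fold, 3.21-fold and 4.66-fold, while Egr1 was at a ratio of 1.54 (1.31 to 1.82), and 12 of the 21 fibroblast markers were higher.

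Set against each other, the 2 inhibitor ratios differed by more than counting error for Dab2, Lrp2 and Cubn. The ratio in KH2 cells divided by the ratio in Erk KO cells was 0.39 for Dab2 (0.30 to 0.51), 0.40 for Lrp2 (0.32 to 0.51) and 0.36 for Cubn (0.18 to 0.73). For the other 7 genes this interval included 1. The difference was also fitted with edgeR on 6 libraries, with both untreated Dox-free libraries as replicates. These libraries are 48 hours apart, and Cubn and Dab2 differed 11.9-fold and 4.43-fold between them, so the fit takes this change with time as its error and says nothing on these genes. It called 0 of 15103 genes, a background of 0%, while 129 had an unadjusted p under 0.05. Its log2 differences were 1.30 for Cubn and 0.17 for Dab2, opposite in sign to the ratios above, and -0.997 for Lrp2. The differences between the cell states therefore have no check beyond counting error.

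For the average effect of the inhibitor over KH2 and Erk KO cells, edgeR's quasi-likelihood test was run on the 4 libraries of these pairs, with cell state as a block. Of the 10 genes, 2 fell and 0 rose at an adjusted p of 0.05, and 4 had an unadjusted p under 0.05. The background at the adjusted threshold was 2.92% of 14782 genes lower and 6.05% higher. At an unadjusted p under 0.05 it was 3327 of the 14782 genes. Cubn fell by 2.10 on the log2 scale (SE 0.253, edgeR with Benjamini-Hochberg adjusted p = 5.77e-05), and it was lower with the inhibitor in both pairs, by 5.30-fold in KH2 cells and by 1.91-fold in Erk KO cells, where its 31 and 16 reads did not meet the limits. Lrp2 fell by 1.06 (SE 0.212, edgeR with Benjamini-Hochberg adjusted p = 0.00473), and was 3.24-fold and 1.30-fold lower in the 2 pairs. For both genes the average joins ratios that differed by more than counting error. Amn was at -0.90 (adjusted p = 0.108), Sox17 at -0.72 (0.241), Sox7 at -0.67 (0.3004), Gata6 at -0.50 (0.194) and Dab2 at -0.37 (0.3501), by the same edgeR test. Pdgfra at -0.07, Gata4 at 0.10 and Foxa2 at 0.39 did not pass either. The fit had 1 residual degree of freedom, and borrowed a median of 13.8 prior degrees of freedom from all genes. Without the block for cell state, edgeR called 0 of 14782 genes, of which 270 had an unadjusted p under 0.05. DESeq2, with the block, called Cubn alone of the set, and 106 of 14782 genes lower and 344 higher. Another fit used all 6 libraries in 3 states, and so also takes 48 and 96 hours without Dox as replicates. In it none of the 10 genes passed, and Cubn was at -2.95 (edgeR with Benjamini-Hochberg adjusted p = 0.306). Over all genes it called 15 of 15103 lower and 103 higher.

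Among other endocytosis genes, changes ran in both directions in this test. Of 23 tested 3 rose and 2 fell, with a median log2 change of 0.07. Vldlr rose by 1.04, and Lrp1 and Lrpap1, which encode another large receptor of the megalin family and a chaperone of these receptors, rose by 0.62 and 0.54. Dab1, an adaptor related to Dab2, fell by 0.95 and the receptor gene Lrp8 fell by 0.70. Of 10 basement membrane genes 6 rose and 0 fell, and of 21 fibroblast markers 16 rose and 0 fell. Of 8 visceral endoderm genes tested 2 fell, Spink1 by 3.89 and Apoe, an apolipoprotein gene, by 0.51. Of 10 further transcription factors of extraembryonic endoderm none passed, with a median of -0.24. Of 8 parietal endoderm genes 2 rose, Plat, a plasminogen activator gene, by 1.12 and Krt19, a keratin gene, by 0.83. Of 6 Erk targets 4 fell and 1 rose, which was Egr1, by 0.47. Each log2 change in this paragraph given as a rise or a fall passed edgeR's test at a Benjamini-Hochberg adjusted p of 0.05.

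**Figure D3:**
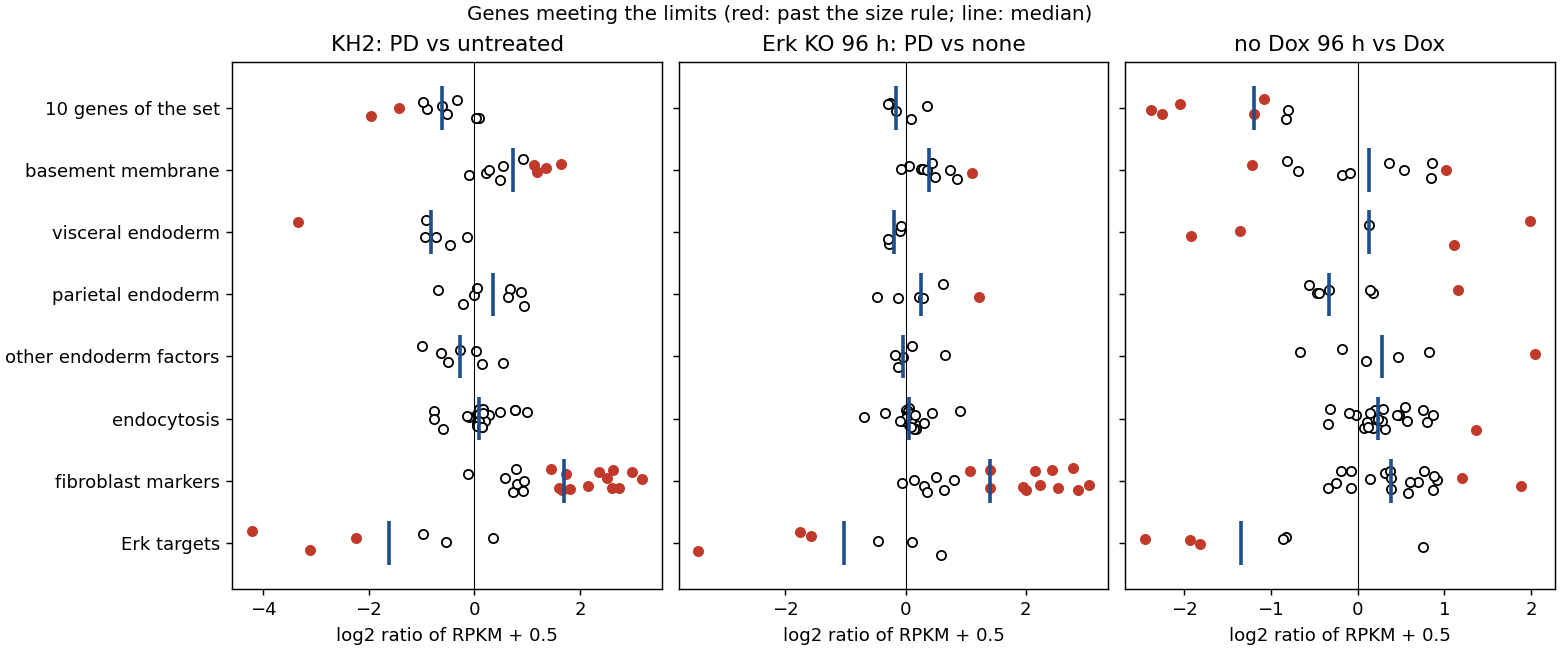
Log2 ratio of RPKM plus 0.5 for the 10 genes and for 7 other gene lists in 3 pairs of libraries, where each point is a gene that met the limits on reads and RPKM. Red points pass the size rule and lines are medians. With the inhibitor the fibroblast markers lie to the right in both cell states, while after 96 hours without Dox the 7 genes of the set that met the limits lie to the left.

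After Dox withdrawal, Gata6 was the first of the set to pass the size rule. Over 48 hours without Dox, it went from 250 reads (8.32 RPKM) to 80 reads (2.58 RPKM), 3.22-fold lower (2.50 to 4.20), and the other 9 genes did not pass. This 1 of 10 genes compares with 2.13% of 11386 genes called lower and 2.77% called higher. Pdgfra was at 4.51 and 2.76 RPKM, 1.63-fold lower (1.35 to 1.99), and Lrp2 at 3.66 and 2.65 RPKM, 1.38-fold lower (1.21 to 1.58). Gata4, at 7.80 and 6.47 RPKM, was 1.21-fold lower with an interval that reached 1. Dab2 (13.7 and 13.0 RPKM) and Cubn (3.19 and 3.26 RPKM) had ratios of 0.95 (0.85 to 1.07) and 1.02 (0.88 to 1.19). For Sox7, Sox17, Foxa2 and Amn the intervals included 1 as well. The median log2 ratio was -0.26 over the 10 genes, -0.40 over the 7 of them that met the limits and -0.03 over all genes tested.

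After 96 hours without Dox, 5 of the 10 genes passed the size rule as lower and 0 as higher, against 2.07% of 11804 genes called lower and 7.62% called higher. Gata6 was at 38 reads (1.20 RPKM), 6.96-fold below the level with Dox (4.93 to 10.1). Cubn was at 31 reads (0.27 RPKM), 11.6-fold lower (8.02 to 17.3). Its covered share, which depends on the number of these reads, was 11.4% against 61.8% with Dox. Dab2 was at 132 reads (2.93 RPKM), 4.66-fold lower (3.85 to 5.67). Pdgfra was at 111 reads (1.70 RPKM), 2.66-fold lower (2.13 to 3.34). Sox7 was at 14 reads (0.43 RPKM) against 45 with Dox, 3.40-fold lower (1.83 to 6.71), and with a pseudocount of 1 its log2 ratio of -0.78 no longer passed.

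The remaining genes did not pass, and all but Amn had a ratio under 1. Lrp2 was at 1.89 RPKM, 1.93-fold lower (1.67 to 2.24), and Gata4 at 4.17 RPKM, 1.87-fold lower (1.51 to 2.31). Sox17 had 24 reads with Dox and 6 at 96 hours, 4.23-fold lower (1.69 to 12.7), and Foxa2 had 12 and 2 reads, 6.35-fold lower (1.41 to 58.4), below the limits on level. Amn had 7 and 11 reads, with an interval that included 1. The median log2 ratio was -1.0 over the 10 genes and -1.19 over the 7 of them that met the limits. Over all genes tested it was 0.05 by library totals, -0.05 with TMM scaling and -0.08 with DESeq2 size factors. Under these size factors 68.4% of all calls were higher rather than 78.7%, and the count for the set was 5 lower under each of the 3 scalings.

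Cubn and Dab2 differed between the 2 times without Dox. From 48 to 96 hours Cubn went from 359 to 31 reads, 11.9-fold lower (8.22 to 17.7), and Dab2 from 570 to 132 reads, 4.43-fold lower (3.66 to 5.39). These 2 of 10 genes compare with 0.469% of 11722 genes called lower and 4.55% called higher. Gata6 went from 80 to 38 reads, 2.16-fold lower (1.45 to 3.27), with a log2 ratio of -0.86 that passed only with a pseudocount of 0.1, at -1.05. Over the same interval 4 of 6 Erk targets passed the size rule as higher at 96 than at 48 hours, Spry4 by 4.15-fold, Egr1 by 3.76-fold, Etv4 by 3.57-fold and Dusp6 by 2.13-fold. Their RPKM values were below those with Dox at both times. Against Dox, 5 of the 6 passed as lower at 48 hours and 3 at 96 hours, and Etv5 did not pass, at 49.3 RPKM with Dox and 69.7 and 83.2 RPKM at the 2 times. The median over all genes was 0.08 by library totals and -0.04 with TMM scaling. The 3 comparisons of Dox withdrawal share libraries, so their values are not independent.

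**Figure D4:**
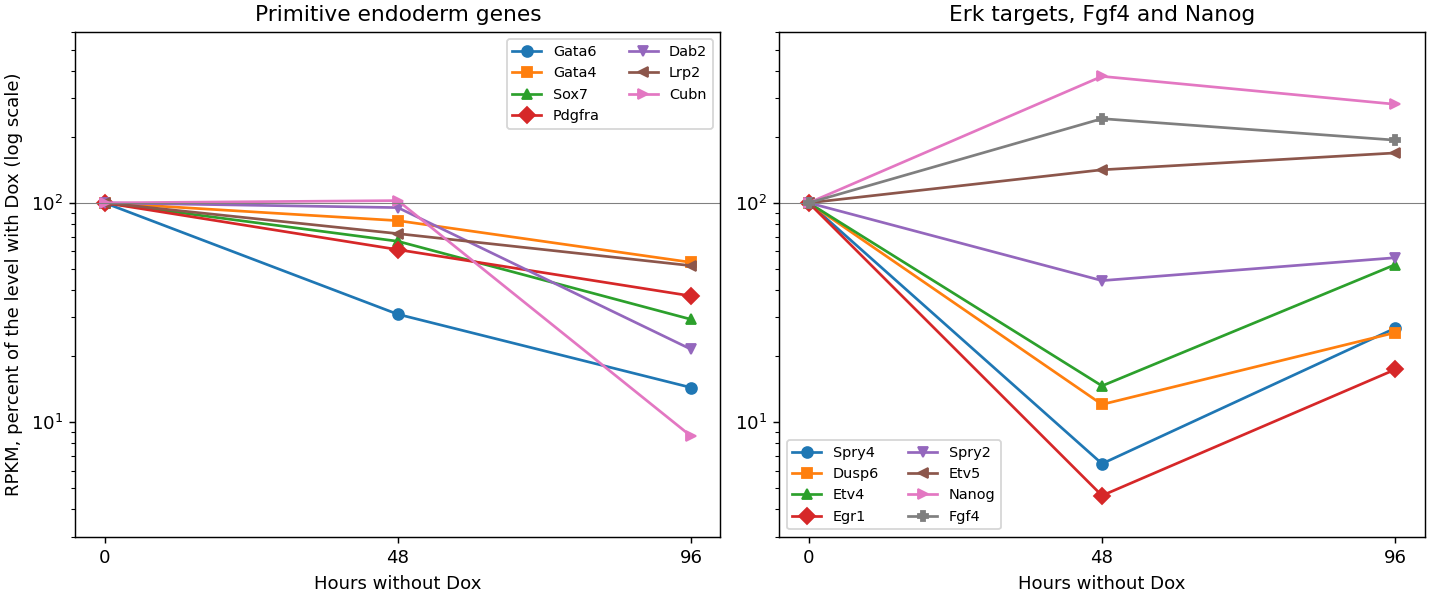
Level after 48 and 96 hours without Dox as a percent of the level with Dox, on a log axis, with 1 library per time. On the left, Gata6 is low at 48 hours while Cubn and Dab2 are near 100 and drop by 96 hours, and on the right 5 of the 6 Erk targets are lowest at 48 hours, while Etv5, Nanog and Fgf4 are above 100.

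Genes around the set moved both ways on withdrawal. Fgf4, the ligand, was 2.42-fold higher at 48 hours (2.28 to 2.57) and 1.93-fold higher at 96 hours, where it did not pass. The epiblast factor gene Nanog was 3.78-fold higher at 48 hours and 2.82-fold higher at 96 hours. It was the 1 of 9 stem cell markers that passed as higher at each time, with 0 lower. The median log2 ratio of these markers was 0.23 at 48 hours and 0.11 at 96 hours. Over all genes 2.77% of 11386 were called higher at 48 hours. Of 14 visceral endoderm genes, 5 met the limits at 96 hours, of which 2 were higher and 2 lower. Amot, which encodes a cell junction protein, was at 4.63 RPKM with Dox and 0.85 RPKM at 96 hours, 5.45-fold lower (4.06 to 7.43), and Apoe was 2.56-fold lower (2.40 to 2.74). Apom, an apolipoprotein gene, and Rbp4, a retinol carrier gene, were higher, from 6 to 36 and from 10 to 30 reads. Of 10 basement membrane genes, Lama1, a laminin chain gene, was 2.37-fold lower (2.21 to 2.54) and Nid1, the nidogen gene, 2.04-fold higher at 96 hours. Of the 23 endocytosis genes, Lrp1 was 2.77-fold higher (2.52 to 3.05) at 96 hours and 0 were lower. Otx2, a homeobox gene of epiblast and visceral endoderm, was 4.27-fold higher (3.63 to 5.05). Fibroblast markers had 2 of 21 higher and 0 lower at 96 hours. Over all 11804 genes tested, 7.62% were called higher and 2.07% lower at 96 hours. The counts for endocytosis genes and fibroblast markers are near these shares.

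The line kept with Dox differed from wild-type KH2 cells in Amn and Sox17. Amn had 90 reads (5.88 RPKM) in untreated KH2 cells and 7 reads (0.44 RPKM) in the line with Dox, 13.3-fold lower (6.20 to 34.1), and it had 7 to 11 reads in all 4 Erk KO libraries. Sox17 had 72 reads (2.53 RPKM) and 24 reads (0.81 RPKM), 3.11-fold lower (1.93 to 5.16). These 2 of 10 genes compare with 21.4% of 12421 genes called lower and 2.76% called higher, so the count for the set is near the background. The median log2 ratio was -0.27 over the 10 genes, -0.38 over the 9 of them that met the limits and -0.37 over all genes tested. With TMM scaling the median of all genes was 0.02 and 41.5% of all calls were higher, against 11.4% by library totals, and 46.3% were higher with DESeq2 size factors.

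Base composition moved with this comparison. With all genes cut into 5 equal classes by transcript GC content, from the lowest to the highest, the median log2 ratio of all genes went from -0.00 through -0.15, -0.35, -0.56 to -0.79, and the share called lower went from 8.84% to 38.9%. Amn has a GC content of 62.9%, in the highest class, and less the median of that class its log2 ratio of -2.76 became -1.96. Sox17, at 52.6% GC, went from -1.20 to -0.64 and no longer passed, as also with TMM scaling (-0.90). Gata6, at 5.37 and 8.32 RPKM, was 1.55-fold higher in the line (1.26 to 1.90), with a log2 ratio of 0.59, and passed as higher less the median of its class (1.38) and with DESeq2 size factors (1.01). Beyond this adjustment its part in these ratios was not tested, and line, library preparation and Dox cannot be told apart. Fibroblast markers were lower in the line as well, in 12 of 21 with 0 higher.

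**Figure D5:**
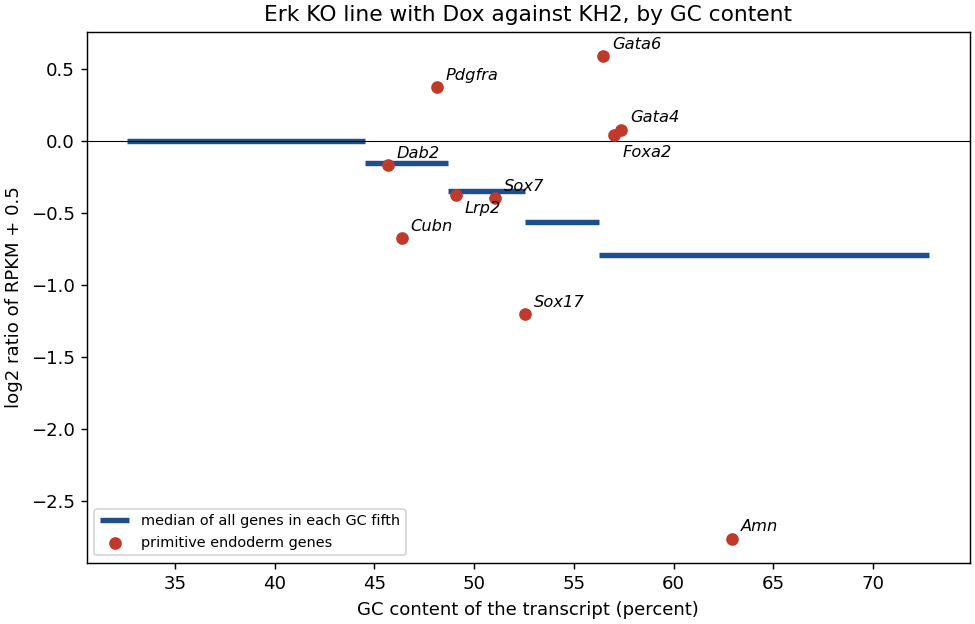
Log2 ratio of RPKM plus 0.5 between the Erk KO line with Dox and untreated KH2 cells against the GC content of the transcript. Bars are medians of all genes in each of 5 classes of GC content and points are the 10 genes. The bars step down from -0.00 to -0.79, Amn lies far below its bar, and Gata6 and Gata4 lie above theirs.

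Ordered by level, the genes fell into different patterns over the libraries. Gata6 was highest in the line with Dox (8.32 RPKM), then in untreated KH2 cells (5.37), treated KH2 cells (3.60) and after 48 hours without Dox (2.58), and each step exceeded counting error. The 2 libraries at 96 hours (1.20 and 0.92 RPKM) did not separate. Gata4 had 4 libraries between 6.47 and 7.85 RPKM whose neighbours did not separate, and the 2 libraries at 96 hours were below them at 4.17 and 4.50 RPKM. Pdgfra was highest with Dox (4.51 RPKM), and its treated and untreated KH2 and 48 hour libraries (3.43, 3.37 and 2.76 RPKM), next in that order, did not separate step by step.

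The uptake genes had other orders. Dab2 was highest in untreated KH2 cells, followed by the line with Dox and after 48 hours without it, which did not separate from each other. Treated KH2 cells lay below these, at 8.07 RPKM, and both libraries at 96 hours lay lower still. Lrp2 stepped down beyond counting error from untreated KH2 cells (4.90 RPKM) through the line with Dox (3.66), 48 hours (2.65) and 96 hours (1.89) to treated KH2 cells (1.51), which did not separate from the treated line (1.45). Cubn was highest in untreated KH2 cells (5.38 RPKM), did not separate between 48 hours without Dox and Dox (3.26 and 3.19), and stepped down from there to treated KH2 cells (1.01), 96 hours (0.27) and 96 hours with the inhibitor (0.14). Amn separated untreated from treated KH2 cells and both from the Erk KO libraries, which did not separate from each other.

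Within the set, Gata6 and Pdgfra had the most similar profiles, with a Pearson r of 0.978 of log2(RPKM + 0.5) over the 6 libraries. Gata6 ranked 9 among 12350 genes by likeness to Pdgfra, and Pdgfra ranked 21 by likeness to Gata6. Cubn and Dab2 had r = 0.966, with Cubn ranked 15 by likeness to Dab2 and Dab2 ranked 16 by likeness to Cubn. Gata4 and Pdgfra had r = 0.957, Sox7 and Sox17 had 0.933, and Cubn and Lrp2 had 0.888. Over all genes, the profiles most like single members were those of Tmem47 for Gata4 (0.998), Slc30a1 for Gata6 (0.997), Clk2 for Sox7 (0.995), Zfp383 for Sox17 (0.998) and Junb for Pdgfra (0.994). For the uptake genes they were Scaf4 for Dab2 (0.984), Srm for Lrp2 (0.988), Cyb5a for Cubn (0.990) and Rpl27 for Amn (0.999). Foxa2, with 52 reads in all, was too low for this. With 6 points that share libraries, line and time course, these values are descriptions only.

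The library preparation does not mark strand, so reads of an overlapping gene on the other strand cannot be told apart from those of the member. RefSeq lists genes that overlap Gata6, Pdgfra, Dab2, Cubn and Amn, such as Gata6os, an RNA antisense to Gata6. All of them had 0 reads listed in the 6 libraries, but a gene absent from the counts was also set to 0. These values therefore do not show that reads from overlapping genes were lacking. Markers of other cell types that share these genes were mixed. The summed level of 8 markers of endothelium, where Sox7 and Sox17 are also active, ran from 28.1 to 47.6 RPKM. Most of it was Pecam1, which stem cells also express, at 22.6 to 42.8 RPKM. Tek, a receptor gene, had 30 to 142 reads and was 4.0-fold higher at 96 hours without Dox (2.67 to 6.17). The other 6 had at most 28 reads per library, among them Cdh5 with at most 11 and Emcn with at most 1. The summed level of 7 markers of definitive endoderm, which also expresses Sox17 and Foxa2, ran from 14.1 to 26.4 RPKM. T had 1 to 217 reads per library, Eomes 80 to 223 and Hhex 58 to 217, while Cer1 had at most 2. The part of such cells in the levels of the set was not tested.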

How the data were processed

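The 6 polyA libraries were read from 1 end over 50 bases, per the labels. The deposited files give unique read counts per gene, made by the authors against mm9 per the submitters' processing notes. The deposited RPKM values are these counts per kilobase of gene and 1e6 counted reads. A further deposited column holds the percent of each gene covered. Neither aligner nor annotation is given in the sources used here.

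Files were joined by gene ID over 18857 genes, with absent genes set to 0 reads. In 4 files symbols were absent, and 18805 genes were matched to RefSeq symbols by ID. Transcript GC content came from the longest protein-coding GENCODE transcript of each gene. It covered 97.0% of the genes tested between the line and KH2 cells, and all 10 genes of the set.

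The 10 genes, the gene lists and the tests were chosen with earlier results of these data known. All 10 were named in each comparison, with up to 3 genes per list and direction that passed the size rule with the largest ratios, genes whose values stand beside a member, and the genes most like each member by Pearson r. Where more of a list are named, they were chosen after their values were seen. Limits were a pseudocount of 0.5 RPKM, an RPKM of 1, 20 reads and a log2 ratio of 1. The average inhibitor effect over both cell states was tested on deposited counts with edgeR 4.0.16 (R 4.3.3), with TMM scaling, at least 20 reads over 4 libraries and Benjamini-Hochberg adjustment over all genes tested, at a threshold of 0.05. Standard errors came from the log2 change and the F value. The fit had a median of 13.8 prior degrees of freedom. DESeq2 1.42.0 was an alternative. The fit of the difference between cell states and the GC adjustment were added after the data were seen. The fit of the average inhibitor effect was tested on simulated data, while the fit of the difference was not. A floor of 3 reads is what a count of 0 allows. Alternatives were other pseudocounts, scalings, filters and blocks. Where nothing says that libraries are separate cultures, p-values measure only the spread between these libraries.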

Additional observations from a re-analysis of the deposited data

How the results depend on the processing

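For the 10 genes, 403 of the single-gene values kept their direction and side of the limit, 4 newly passed, 10 no longer passed and 2 reversed. In the comparison of the line with KH2 cells, the count of lower genes was 1 (Amn) with a pseudocount of 1, with TMM scaling, with DESeq2 size factors and after subtracting the median of the gene's GC class, since Sox17 was then at -0.96, -0.90, -0.87 and -0.64. The count of higher genes there was 1 (Gata6) with DESeq2 size factors and after the GC adjustment. For the average inhibitor effect, the count of lower genes was 1 with DESeq2 (Cubn; Lrp2 -1.05, adjusted p = 0.652), and 0 by edgeR both without the block for cell state and with all 6 libraries in 3 states, where 48 and 96 hours without Dox count as replicates. At an unadjusted p under 0.05 these fits had 1 and 2 of the 10 genes, against 270 of 14782 and 1690 of 15103 genes. In the last of them Gata4 was at -0.14 and Foxa2 at -0.33, reversed from their values in the reported fit, and Lrp2 had an edgeR adjusted p of 0.164. The cause was not tested. DESeq2 gave Foxa2 no adjusted p. The other counts of lower genes stayed within 1.5 times under each alternative run.

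Replicate numbers pair nothing, because each group has 1 library, and for the same reason no library was left out. The only pairing was in the inhibitor fit, which pairs libraries by cell state, as its block. Foxa2 had 2 to 15 reads per library and met the limits in none of the comparisons, and Sox7, Sox17 and Amn had under 20 reads in the libraries where they were lowest.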

Other observations

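Between the line with Dox and untreated KH2 cells, where 21.4% of genes were called lower, other endoderm and streak genes also differed. The folds given here are by library totals, without the GC adjustment. Of 8 parietal endoderm genes 4 were lower and 0 higher, with Krt19 7.46-fold lower (5.79 to 9.74) and Thbd, the thrombomodulin gene, 4.17-fold lower (3.44 to 5.08). T, the brachyury gene of the primitive streak, was at 11.7 RPKM in KH2 cells and 0.68 RPKM in the line, 17.3-fold lower (9.89 to 33.0). Hhex, a homeobox gene of early endoderm, was at 3.60 and 11.5 RPKM, 3.20-fold higher in the line (2.37 to 4.37). Of 11 further endoderm transcription factors 7 met the limits, of which 3 were lower and 1, Hhex, was higher. Of 7 streak and definitive endoderm markers 5 met the limits, of which 3 were lower and 1, again Hhex, was higher. From 48 to 96 hours without Dox, Eomes, a T-box gene of streak and endoderm, went from 80 to 223 reads, 2.72-fold higher (2.10 to 3.55). Dkk1, a Wnt inhibitor gene of anterior visceral endoderm, went from 53 to 9 reads, 6.04-fold lower (2.95 to 13.9). Of the 14 visceral endoderm genes, 6 met the limits from 48 to 96 hours, of which 3 were higher and 2 lower. Over all genes 4.55% of 11722 were called higher and 0.469% lower. These pairs have 1 library each and were not tested.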
